A study of Mus musculus with 40 samples.

Results

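The genes described here are the enzymes of glycolysis, the carriers and dehydrogenases that move glucose and lactate between cells, and genes switched on by hypoxia-inducible factor (HIF). They were measured in mouse ES-astrocytes and ES-motor neurons. The members were the 34 listed mouse gene symbols whose Ensembl identifiers were in the count table, of 55487 genes in all. Aldoa had 2 identifiers, of which ENSMUSG00000030695 with 34500 counts was used and ENSMUSG00000114515 with 32 counts was not.

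ES-astrocytes and ES-motor neurons were both differentiated from mouse embryonic stem cells that carry Hb9::eGFP, a transgene whose motor neuron promoter makes ES-motor neurons fluoresce green. ES-astrocytes received a stimulus for 24 h, then sorted eGFP-positive ES-motor neurons were plated on top, and the co-culture was sorted into its cell types at about 200 cells a library for sequencing of cytosolic polyA RNA. The 5 treatments were control, IL-1α with TNF-α, C1Q with C5, IL-1β with IL-6, and TGF-β2, each with 4 biological replicates (A to D) of each cell type, 40 libraries in all. The paper defines a biological replicate as a separate vial of ES cells, so p-values refer to cultures of this cell line. Whether a letter marks the same vial across treatments is not given, so libraries of a cell type may not all be independent. All 10 groups share the genotype and the transgene, and the stimulus was given to the ES-astrocytes before the ES-motor neurons were plated.

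Total counts ran from 1510823 to 16054290 in the ES-astrocyte libraries (median 4670242) and from 6557 to 19717324 in the ES-motor neuron libraries (median 1213482). Shallow libraries, below 20% of the median total, numbered 9, and all 9 were of ES-motor neurons. They were control replicate C, all 4 with IL-1α and TNF-α, C1Q and C5 replicate A (6557 counts), IL-1β and IL-6 replicates B and D, and TGF-β2 replicate A. A gene listed at 0 in those libraries was not detectable at their depth: in C1Q and C5 replicate A, 3 counts correspond to 458 CPM (counts per 1e6) of its total. The control and the IL-1α with TNF-α libraries carried 1 plate index and the libraries of the other 3 stimuli another, so for those 3 the stimulus and the plate cannot be told apart.

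Glycolysis splits glucose into pyruvate in the cytosol, and lactate dehydrogenase turns pyruvate into lactate and back. Astrocytes of the brain are known for a high rate of glycolysis and for releasing lactate through monocarboxylate transporters, and neurons for taking lactate up and oxidising it. In low oxygen HIF is stabilised and raises the transcription of glucose transporters, glycolytic enzymes and other target genes.

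The labels were first compared with marker genes. Levels are given throughout as CPM scaled by the trimmed mean of M-values (TMM), and each trio of values is the lowest, the median and the highest library. The summed level of 8 motor neuron markers was 15.6, 39.0 and 109 CPM in the 20 ES-astrocyte libraries and 649, 987 and 4732 CPM in the 20 ES-motor neuron libraries, led by Mnx1, the gene of the Hb9 protein, at a median of 661 CPM. That list separated the cell types in every library. The 9 astrocyte markers summed to 606, 1633 and 2767 CPM in ES-astrocytes, with Fabp7 at a median of 1330 CPM, and to 0, 355 and 732 CPM in ES-motor neurons, with Sox9 most abundant at 273 CPM. The ranges of these sums overlapped, and the level of Sox9 in ES-astrocytes is not given here, so its direction is left out. Slc1a2 was at 27.6, 107 and 295 CPM in ES-astrocytes and at 0, 12.8 and 64.2 CPM in ES-motor neurons, and Slc1a3 and Gja1, at medians of 32.0 and 52.0 CPM, were each seen in 2 ES-motor neuron libraries. Gfap, Aqp4 and Aldh1l1 had 0 counts in all 20 ES-astrocyte libraries, while Gfap had 1 count in 1 ES-motor neuron library, so the name ES-astrocytes is used as the label gives it.

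Other cell type markers moved with the cell type too. The 6 genes of dividing cells summed to 609, 970 and 1489 CPM in ES-astrocytes and to 0, 6.58 and 19.3 CPM in ES-motor neurons, with Top2a most abundant. In the test 6 of 6 passed lower in ES-motor neurons, beside 11% of all genes tested. At sums this low they may have passed the filter on low counts only through ES-astrocytes, so their calls are a description. The 6 fibroblast or mesenchyme markers summed to 36.8, 203 and 1119 CPM in ES-astrocytes, with Dcn at a median of 138 CPM, and to 0, 0 and 5.90 CPM in ES-motor neurons, where Col1a2 and Lum were at 0. Among 6 neural progenitor markers, led by Vim, the sums were 407, 592 and 905 CPM in ES-astrocytes against 67.4, 502 and 731 CPM in ES-motor neurons. The 9 neuronal markers, led by Gap43, summed to 2447, 3657 and 5488 CPM in ES-astrocytes against 5455, 15581 and 22119 CPM in ES-motor neurons. Markers of microglia, endothelium and pluripotent cells stayed at 21.8 CPM or lower in each library, and oligodendrocyte lineage markers at 45.5 CPM or lower. The part of cell division, mesenchymal cells or neuronal RNA in the differences given next was not tested.

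All 34 members together made up 938, 1203 and 3156 CPM in ES-astrocytes against 757, 1082 and 1959 CPM in ES-motor neurons. Counts were found for 7 members in every one of the 40 libraries (Gpi1, Aldoa, Gapdh, Pkm, Ldhb, Pdha1 and Higd1a), for 15 in every ES-astrocyte library, and 9 were detected in fewer than 10 ES-motor neuron libraries. Per kilobase of the principal transcript, the scale on which genes can be compared, Ldhb had the highest median level of the members in both cell types, 138 CPM per kb in ES-astrocytes against 147 CPM per kb in ES-motor neurons. It was followed by Higd1a (113 and 93.4 CPM per kb) and Aldoa (78.3 and 59.2 CPM per kb). Pkm, Pgk1, Gapdh, Tpi1 and Eno1 lay between 12.3 and 36.2 CPM per kb in both cell types, and Hk1, Slc2a1, Slc2a3 and Slc16a1 between 0 and 2.80 CPM per kb.

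**Figure D1:**
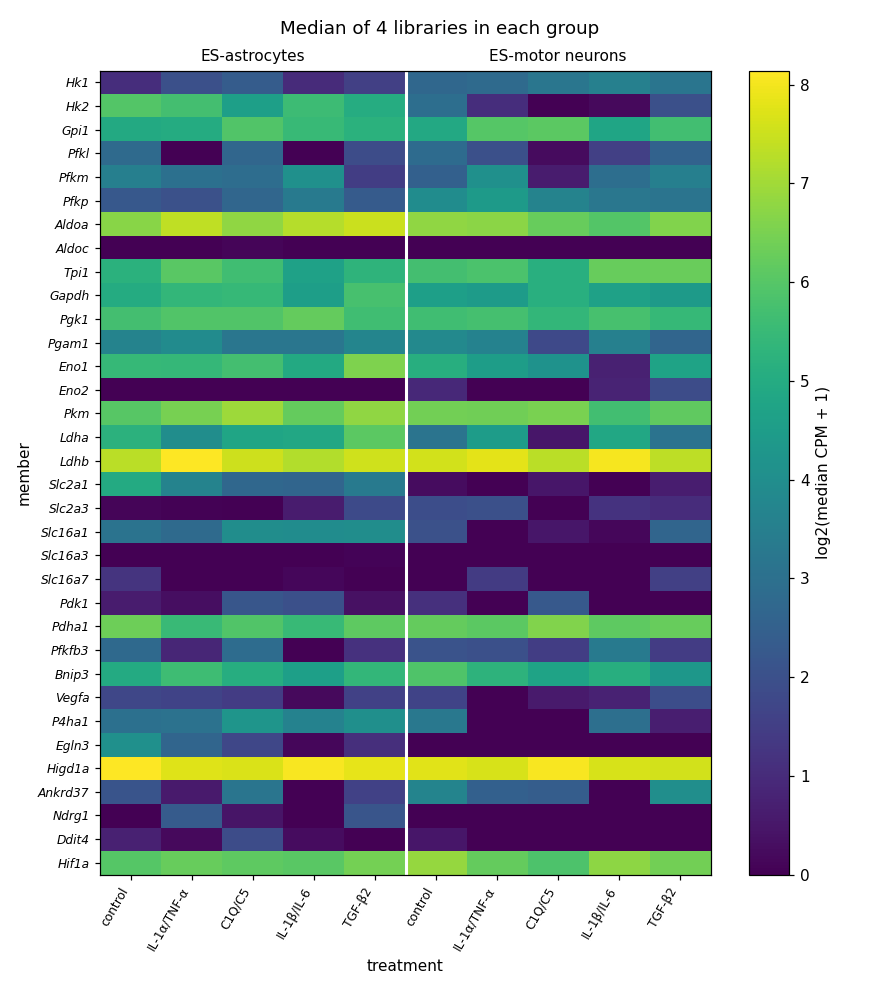
Level of each of the 34 members as a heat map of log2(median CPM + 1). Each column is the median of 4 libraries of a treatment, with ES-astrocytes on the left and ES-motor neurons on the right. Over the 20 libraries of each cell type Hk2, with medians of 36.4 and 0.158 CPM, separates the cell types more than Ldhb, with medians of 180 and 191 CPM.

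ES-motor neurons were compared with ES-astrocytes across the 5 treatments, with treatment as a term, to ask how far the cell types differ in fuel use genes. Of the 30 members with enough counts to test, 6 passed in edgeR's quasi-likelihood F test (Benjamini-Hochberg adjusted p over 13227 genes no higher than 0.05, with more than a 2-fold difference), against 14.9% of all genes tested. All 6 were lower in ES-motor neurons, a direction in which 11% of all genes tested passed. They were the hexokinase Hk2, the glucose transporter Slc2a1, the enolase Eno1, the lactate dehydrogenase Ldha, the monocarboxylate transporter Slc16a1 and the HIF target Egln3. The first 5 had enough counts for the filter in each cell type. In ES-motor neurons Slc2a1 did so only with shallow libraries counted, IL-1α and TNF-α replicate A (1 count) and TGF-β2 replicate A (3 counts). Egln3 passed it through ES-astrocytes alone, so the call of Egln3 supports nothing and no p is given for it. The alternative fit by limma-voom with quality weights, which moved the median of all genes by 0.59, called 10 members, 6 higher in ES-motor neurons (beside 16.8% of all genes) and 4 lower (beside 6.71%), and Slc2a1 and Egln3 were not among them. Over the 30 members the median log2 fold change was 0.02, with Egln3 at its lower bound or as fitted, beside -0.21 over all genes tested. In bulk libraries fewer cells that express a gene and less RNA per cell cannot be told apart.

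Hexokinases trap glucose in the cell by phosphorylating it, and Hk2 is the isoform known from growing and insulin-responsive tissues while Hk1 prevails in adult brain. Hk2 (ENSMUSG00000000628, chr6:82725025-82774454, minus strand, in the GRCm38 annotation) was at 3.41, 36.4 and 150 CPM in ES-astrocytes and at 0, 0.158 and 33.4 CPM in ES-motor neurons. Each of the 20 ES-motor neuron libraries lay below the ES-astrocyte median, and 12 of 20 ES-astrocyte libraries lay above the highest ES-motor neuron library, which was IL-1β and IL-6 replicate D with 5 counts. Its log2 fold change was -3.82 (SE 0.60, edgeR adjusted p = 2.4e-06). Within single treatments Hk2 was lower in ES-motor neurons in each of the 5, with log2 fold changes of -2.69 in control, -4.71 with IL-1α and TNF-α, -6.27 with C1Q and C5, -3.07 with IL-1β and IL-6 and -3.66 with TGF-β2. The groups did not overlap with IL-1α and TNF-α, with C1Q and C5 and with IL-1β and IL-6. This is a description, because it rests partly on shallow libraries. With IL-1α and TNF-α, 3 counts correspond to 25.6 and 26.6 CPM in ES-motor neuron replicates A and D, above the lowest ES-astrocyte value of 13.8 CPM. With IL-1β and IL-6 the closest pair was 33.4 CPM, from 5 counts, and 37.2 CPM. Hk2 was called with IL-1α and TNF-α alone, where 1 of 18 members tested and 2.82% of all genes tested were. All 4 ES-motor neuron libraries there were shallow, with 0, 1, 1 and 0 counts of Hk2, and in each single treatment it passed the filter through ES-astrocytes alone, so no p is given.

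Hk1 had the other direction without passing. Its levels were 0, 1.49 and 39.0 CPM in ES-astrocytes against 0, 8.39 and 23.6 CPM in ES-motor neurons. In 17 of 20 ES-motor neuron libraries it was above the ES-astrocyte median, and the ranges overlapped almost fully (log2 fold change 1.17, SE 0.69, edgeR adjusted p = 0.279). With limma-voom Hk1 was called higher in ES-motor neurons.

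Glucose enters cells by facilitated diffusion, in astrocytes and at the blood-brain barrier mainly through GLUT1, the product of Slc2a1, and in neurons through GLUT3, the product of Slc2a3. Slc2a1 (ENSMUSG00000028645, chr4:119108711-119137983, plus strand) was at 0, 9.11 and 53.5 CPM in ES-astrocytes and at 0, 0 and 12.4 CPM in ES-motor neurons. It had counts in 18 ES-astrocyte and 8 ES-motor neuron libraries, 19 of 20 ES-motor neuron libraries lay below the ES-astrocyte median, though in 8 of the 20 a floor of 3 counts lies above that median, and the highest, TGF-β2 replicate A, held 3 counts of the gene. The log2 fold change was -2.33 (SE 0.81, edgeR adjusted p = 0.0351). As its pass of the filter in ES-motor neurons leaned on shallow libraries, this call is a description. By limma-voom the log2 fold change was -1.29 and Slc2a1 was not called (adjusted p = 0.133). Slc2a3 was sparse in both cell types, with counts in 9 ES-astrocyte and 10 ES-motor neuron libraries, at 0, 0 and 21.8 CPM and at 0, 0.176 and 13.3 CPM. Its log2 fold change of 0.59 did not pass (edgeR adjusted p = 0.838, 10 of 20 ES-motor neuron libraries above the ES-astrocyte median), turned to -0.10 without the libraries of replicate B and to -0.14 in the plate of the last 3 stimuli alone, and was called higher with limma-voom.

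The middle of the pathway showed no member that passed. Phosphofructokinase, the committed step, has a liver (Pfkl), a muscle (Pfkm) and a platelet (Pfkp) isoform. Pfkp was at 0, 5.49 and 30.1 CPM in ES-astrocytes and at 0, 10.05 and 33.5 CPM in ES-motor neurons, with 15 of 20 ES-motor neuron libraries above the ES-astrocyte median (log2 fold change 0.83, edgeR adjusted p = 0.404). Pfkp shares 748 exon bases with Pitrm1 on the other strand, a gene with 4432 counts beside its 2158, so its level and share are uncertain. Pfkl reached 11.02 CPM in ES-astrocytes against 30.2 CPM in ES-motor neurons (log2 fold change 1.17, edgeR adjusted p = 0.399, 10 of 20 above the ES-astrocyte median). A floor of 3 counts lies above the ES-astrocyte median in 9 of the 20 ES-motor neuron libraries for Pfkp and in 14 for Pfkl. Pfkm had near-equal medians of 9.46 and 8.60 CPM, and its log2 fold change of -0.03 (edgeR adjusted p = 0.986, 11 of 20 below) changed sign in 8 other settings and in 2 of 5 in which libraries were left out. None of the 3 separated the cell types, with the exception that limma-voom called Pfkp higher in ES-motor neurons.

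Aldolase splits fructose bisphosphate, with Aldoa in most tissues and Aldoc in astrocytes and other brain cells. Aldoa was at 59.5, 118 and 538 CPM in ES-astrocytes and at 11.3, 89.5 and 395 CPM in ES-motor neurons (log2 fold change -0.51, SE 0.29, edgeR adjusted p = 0.262, 13 of 20 ES-motor neuron libraries below the ES-astrocyte median). Aldoc was close to absent in both cell types, with 232 counts in 4 ES-astrocyte libraries, 207 of them in C1Q and C5 replicate B, and 52 counts in 1 ES-motor neuron library. It was too low to test.

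Of the enzymes that act on triose phosphates, none passed. Gapdh, which reduces NAD and is often used as a reference gene, was at 14.1, 40.9 and 351 CPM in ES-astrocytes and at 8.27, 24.7 and 195 CPM in ES-motor neurons (log2 fold change -0.69, SE 0.39, edgeR adjusted p = 0.250, 16 of 20 below the ES-astrocyte median). Near-identical genes, 127 of them, held 11.9% of the counts of Gapdh and these copies together, so reads of Gapdh may have been split and its level is uncertain. Tpi1, Pgk1 and Pgam1 had log2 fold changes of 0.36, -0.10 and -0.69. Gpi1, phosphoglucose isomerase, which is not a triose step, had 0.14 and did not pass either.

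Enolase makes phosphoenolpyruvate, and its isoform Eno2 is a known marker of mature neurons while Eno1 is widespread. Eno1 (ENSMUSG00000063524, chr4:150236721-150248879, plus strand) was at 19.04, 50.8 and 247 CPM in ES-astrocytes and at 0, 24.9 and 99.3 CPM in ES-motor neurons. In 16 of 20 ES-motor neuron libraries it was below the ES-astrocyte median, and 4 ES-astrocyte libraries lay above the highest ES-motor neuron library (log2 fold change -1.19, SE 0.40, edgeR adjusted p = 0.0266). Eno2 had 7 counts in 2 ES-astrocyte libraries and 90 counts in 8 ES-motor neuron libraries, up to 11.8 CPM, and was too low for the test used here. DESeq2 and the edgeR fit with no filter on low counts, which both tested it, called Eno2 higher in ES-motor neurons. In that direction DESeq2 called 1 of 31 members and 4.02% of all genes. Pkm, pyruvate kinase, was at 42.7, 88.1 and 532 CPM and at 33.1, 78.99 and 254 CPM (log2 fold change -0.36, edgeR adjusted p = 0.432, 13 of 20 below), a level made uncertain by 767 exon bases shared with Gm49759.

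Lactate dehydrogenase is a tetramer of A and B subunits, and the A subunit is known for favouring lactate formation and the B subunit lactate oxidation. Ldha (ENSMUSG00000063229, chr7:46841475-46855627, plus strand) was at 0, 28.1 and 244 CPM in ES-astrocytes and at 0, 9.46 and 59.0 CPM in ES-motor neurons. Of the ES-motor neuron libraries, 17 of 20 lay below the ES-astrocyte median (log2 fold change -1.87, SE 0.57, edgeR adjusted p = 0.0147). The difference was not seen in every treatment: the log2 fold change was -3.51 in control, -3.10 with C1Q and C5 and -2.55 with TGF-β2, but -0.04 with IL-1α and TNF-α and 0.0030 with IL-1β and IL-6, and whether these differ between treatments was not shown (the interaction test is given with the stimuli). Near-identical genes held 0.0855% of the counts of Ldha and its copies in ES-astrocytes against 5.23% in ES-motor neurons. Ldhb was at 53.7, 180 and 353 CPM in ES-astrocytes and at 99.2, 191 and 471 CPM in ES-motor neurons, with overlapping ranges (log2 fold change 0.08, SE 0.21, edgeR adjusted p = 0.864, 13 of 20 above the ES-astrocyte median).

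Monocarboxylate transporters carry lactate across the plasma membrane, and MCT1 (Slc16a1) and MCT4 (Slc16a3) are known as glial forms and MCT2 (Slc16a7) as the neuronal form. Slc16a1 (ENSMUSG00000032902, chr3:104638668-104658462, plus strand) was at 0.765, 10.7 and 110 CPM in ES-astrocytes, each of the 20 with counts, and at 0, 0.393 and 33.1 CPM in ES-motor neurons, where 12 had. It was below the ES-astrocyte median in 18 of 20 ES-motor neuron libraries, of which 12 are among the 13 deep enough for 3 counts to lie below that median (log2 fold change -1.94, SE 0.67, edgeR adjusted p = 0.0343). Slc16a3 had 36 counts in 5 ES-astrocyte libraries and 49 counts in 1 ES-motor neuron library, and was too low to test. Slc16a7 had counts in 7 and 8 libraries, up to 14.6 and 11.3 CPM (log2 fold change 0.19, edgeR adjusted p = 0.948, 8 of 20 ES-motor neuron libraries above the ES-astrocyte median of 0). Its sign turned without the shallow libraries (-0.79) and without replicate D (-0.99), and limma-voom called it higher in ES-motor neurons.

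Pyruvate enters the mitochondrial cycle through pyruvate dehydrogenase, whose subunit is Pdha1 and whose inhibitor kinase is the HIF target Pdk1. Pdha1 was at 11.01, 61.1 and 119 CPM in ES-astrocytes and at 32.5, 81.0 and 135 CPM in ES-motor neurons (log2 fold change 0.27, edgeR adjusted p = 0.553, 16 of 20 above the ES-astrocyte median). It shares 603 exon bases with Map3k15 on the other strand, a gene with 3578 counts beside its 11885, so its level is uncertain. Pdk1 had counts in 13 ES-astrocyte and 7 ES-motor neuron libraries, and Pfkfb3, which makes the activator of phosphofructokinase, in 11 and 12. Neither passed edgeR's test, with log2 fold changes of 0.08 and 0.61, though limma-voom called Pdk1 higher in ES-motor neurons.

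Hif1a encodes the oxygen-regulated HIF subunit, which is controlled mostly at the protein level. It was at 30.4, 69.2 and 101 CPM in ES-astrocytes and at 0, 80.4 and 179 CPM in ES-motor neurons, with 12 of 20 ES-motor neuron libraries above the ES-astrocyte median (log2 fold change 0.42, SE 0.21, edgeR adjusted p = 0.188). Among its targets, Egln3, a prolyl hydroxylase that marks HIF for degradation, was found in ES-astrocytes alone. Egln3 (ENSMUSG00000035105, chr12:54178981-54203860, minus strand) had 1021 counts in 13 of 20 ES-astrocyte libraries, at 0, 2.44 and 35.2 CPM, and 0 counts in all 20 ES-motor neuron libraries. Taking 3 counts over all ES-motor neurons as the floor, its level was at least 188-fold higher in ES-astrocytes, or 116-fold without IL-1α and TNF-α replicate A, which held 460 of the counts. In 12 of the 20 ES-motor neuron libraries 3 counts lie above the ES-astrocyte median, so their 0 does not show a lower level one by one. Reads were amplified by PCR without molecular identifiers, so floors and intervals cover counting error only. With limma-voom its log2 fold change was -0.37 and it was not called.

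The other HIF targets did not pass. Vegfa, an angiogenic growth factor, was at 0, 1.52 and 11.3 CPM in ES-astrocytes and at 0, 0.940 and 10.2 CPM in ES-motor neurons (log2 fold change 0.34, edgeR adjusted p = 0.849, 8 of 20 above the ES-astrocyte median). Bnip3, a mitophagy receptor, was at 2.34, 31.8 and 62.0 CPM and at 0, 38.8 and 77.0 CPM (log2 fold change 0.11, edgeR adjusted p = 0.898, 12 of 20 above). Its sign turned in 6 other settings and without replicate A, and an antisense gene, Gm45507, shares 504 exon bases with it. Whether the counting used strand is not given in the sources used here, so reads of this pair cannot be told apart. P4ha1, Higd1a and Ndrg1 had log2 fold changes of -1.03, -0.20 and -1.41 and Ankrd37 of 1.68. Ankrd37 shares 57 exon bases with Ufsp2, a gene with 14814 counts beside its 744, so its level is uncertain. Ddit4, a stress gene with 104 counts in all, was too low to test. In all, 24 members did not pass, 15 with a positive and 9 with a negative log2 fold change, from -1.41 (Ndrg1) to 1.68 (Ankrd37), at adjusted p from 0.188 to 0.986 by edgeR.

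**Figure D2:**
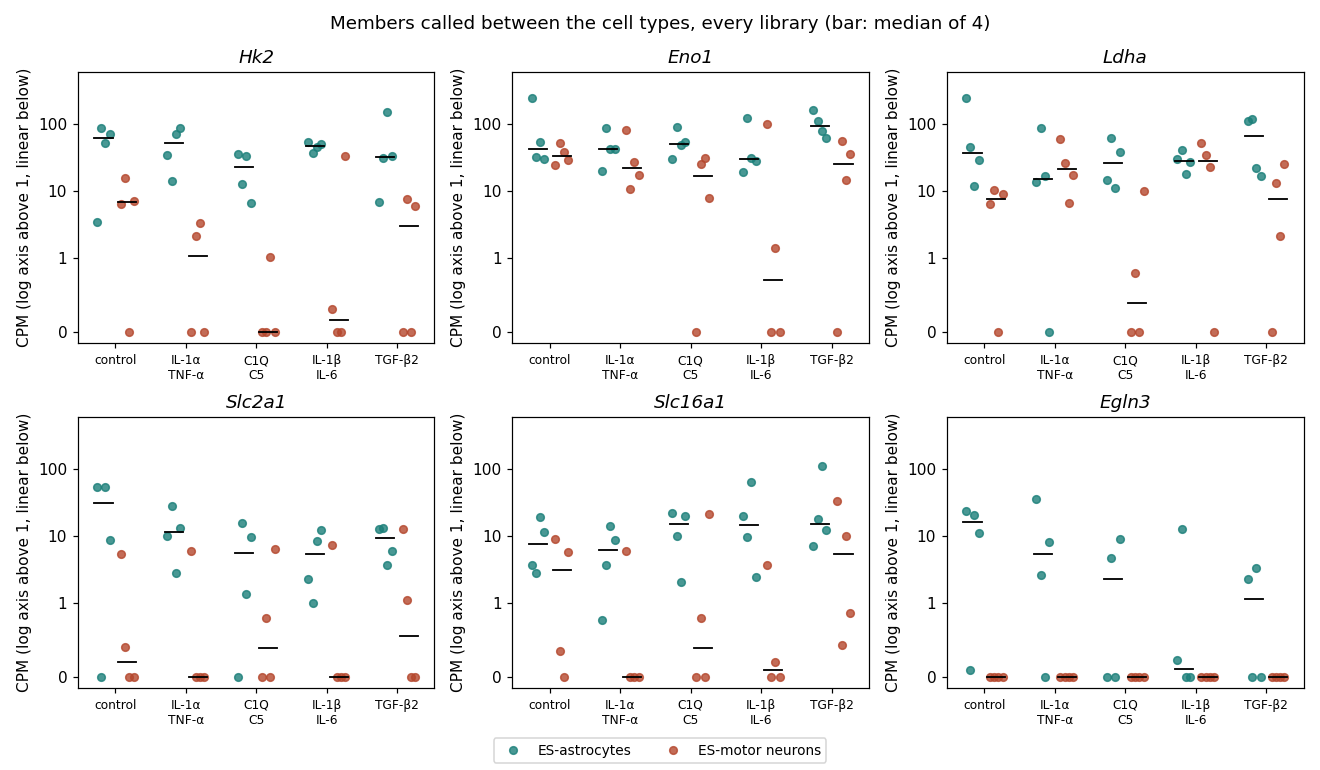
CPM of the 6 members that passed the test between cell types, by treatment, with 4 libraries a group as points and their median as a bar, on a log axis above 1 and linear below. Egln3 was at 0 in all 20 ES-motor neuron libraries, and Hk2 reached 33.4 CPM in 1 ES-motor neuron library beside an ES-astrocyte median of 36.4 CPM.

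Calls of the 6 did not rest equally on all libraries. Egln3, with 0 counts in ES-motor neurons, is left out of the counts that follow. Of the other 5, Hk2 alone was called without replicate B (beside 11.1% of all genes), Hk2 and Ldha without C (12%), Hk2, Ldha and Slc16a1 without D (12.7%), and all 5 without A (13.3%), there with Ndrg1 in addition. Hk2 had an edgeR adjusted p of at most 0.000714 in these. Of the lost calls, Slc16a1 without C (-0.90) and Eno1 without B (-0.96) fell below a 2-fold difference. The others kept log2 fold changes of -1.76 (Slc2a1), -1.78 (Slc16a1) and -1.37 (Ldha) without B, -1.95 (Slc2a1) and -1.21 (Eno1) without C, and -2.41 (Slc2a1) and -1.15 (Eno1) without D. Without the 9 shallow libraries Hk2 and Ldha were called (10.4% of all genes), while the log2 fold changes of Slc2a1 (-2.40), Slc16a1 (-1.90) and Eno1 (-1.03) stayed near those with all libraries. Without the control ES-astrocyte replicate A, 3 of the 5 were called (14.7% of all genes), and Eno1 (-0.93, edgeR adjusted p = 0.105) and Slc2a1 (-2.192, edgeR adjusted p = 0.0530) were not. In the 16 libraries of the first plate alone and in the 24 of the second Hk2 alone of the 5 was called (6.65% and 10% of all genes), but in both it passed the filter through ES-astrocytes alone. Egln3 did not pass the filter in the second plate, where ES-astrocytes held 196 counts of it and ES-motor neurons 0. The log2 fold changes in the first and second plate were -3.88 and -1.45 for Slc2a1, -1.74 and -1.87 for Ldha, -1.58 and -2.09 for Slc16a1, and -0.80 and -1.33 for Eno1.

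The unstimulated cell types alone, 4 control libraries of each, gave 0 called of 24 members tested in edgeR (quasi-likelihood, Benjamini-Hochberg adjusted), beside 2.24% of all 10199 genes tested. At an unadjusted p under 0.05 there were 4 (Hk2, Gapdh, Ldha and Slc2a1, all lower in ES-motor neurons), beside 1084 of all genes. Hk2 and Ldha passed the filter there through ES-astrocytes alone, so that count is a description and their calls in control support nothing. DESeq2 called 2 of 27, Ldha and Egln3, the latter at 0 in ES-motor neurons, beside 6.25% of the 12231 genes to which it gave an adjusted p. The median log2 fold change was -0.31 over the members tested and -0.20 over all genes. Groups did not overlap for 3 members, Ldha, Bnip3 and Egln3, of which the first 2 were tested, where 10.7% of all genes tested had groups without overlap.

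For Ldha, control ES-astrocyte replicates A to D were at 244, 44.9, 12.02 and 28.7 CPM and the ES-motor neurons at 6.33, 10.4, 0 and 9.06 CPM. All 4 ES-motor neuron libraries were lower than all 4 ES-astrocyte libraries, the closest pair being 12.02 and 10.4 CPM (log2 fold change -3.51, SE 1.02). Ldha passed the filter in control through ES-astrocytes alone, so no p is given. Without ES-astrocyte replicate A the log2 fold change was -1.98. For Egln3, replicates A to D of the ES-astrocytes were at 23.3, 0.0902, 20.8 and 10.9 CPM and all ES-motor neurons at 0, at least 90.2-fold higher in ES-astrocytes over the group. That bound rests mostly on the deepest library, ES-motor neuron replicate B, and is 13.5-fold without it, a refit chosen after seeing the data. ES-astrocyte replicate B held a single count, so the lack of overlap hangs on it. Bnip3 went the other way, at 2.34, 28.8, 32.1 and 37.8 CPM in ES-astrocytes against 57.8, 70.7, 57.6 and 60.5 CPM in ES-motor neurons (log2 fold change 1.33, SE 0.72, edgeR adjusted p = 0.587, higher in 4 of 4). Of the stimulated groups IL-1β and IL-6 had the same direction (0.61), while the log2 fold change was -0.79 with C1Q and C5, -0.37 with TGF-β2 and -0.26 with IL-1α and TNF-α.

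For Hk2 the control ES-astrocytes were at 3.41, 86.3, 51.7 and 71.6 CPM and the ES-motor neurons at 6.33, 15.7, 0 and 7.15 CPM. Only ES-astrocyte replicate A fell among the ES-motor neurons (log2 fold change -2.69, SE 1.02, 4 of 4 ES-motor neuron libraries below the ES-astrocyte median). Without that library the log2 fold change was -3.001, and Hk2 was the single member called, beside 4.04% of all genes. Hk2 passed the filter in control through ES-astrocytes alone, so that call supports nothing and no p is given. Slc2a1 was at 53.2, 0, 53.5 and 8.55 CPM in ES-astrocytes and at 5.42, 0.408, 0 and 0 CPM in ES-motor neurons. Replicate B of the ES-astrocytes, at 0 CPM in a library of 13384392 counts, overlapped with the ES-motor neurons (log2 fold change -4.29, SE 1.93, edgeR adjusted p = 0.455, 4 of 4 below the ES-astrocyte median). Eno1 was at 247, 31.7, 53.9 and 29.7 CPM in ES-astrocytes and at 24.4, 52.8, 38.4 and 29.1 CPM in ES-motor neurons, and Slc16a1 at 3.62, 2.80, 18.9 and 11.5 CPM and at 9.04, 0.357, 0 and 5.72 CPM. For both genes the groups overlapped.

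Among members that edgeR called in no main comparison, Hk1 in control was at 9.48, 0.0902, 1.46 and 0.684 CPM in ES-astrocytes and at 4.52, 6.73, 11.5 and 1.91 CPM in ES-motor neurons. Over all treatments limma-voom did call Hk1, as given above. Replicate A of the ES-astrocytes was again the exception, since the other 3 lay below all 4 ES-motor neuron libraries. Ldhb was at 353, 122, 195 and 110 CPM and at 154, 293, 192 and 190 CPM, Hif1a at 30.4, 101, 64.5 and 61.9 CPM and at 131, 98.6, 161 and 48.6 CPM, and Vegfa at 0, 4.69, 11.3 and 0 CPM and at 1.81, 5.51, 0 and 2.38 CPM. These 3 genes overlapped between the cell types.

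Control ES-astrocyte replicate A stood apart from replicates B, C and D in several members. Aldoa was at 538 CPM there and at 59.5, 91.1 and 116 CPM in the others, Gapdh at 351 CPM and at 29.8, 32.4 and 28.7 CPM, and Eno1 at 247 CPM and at 31.7, 53.9 and 29.7 CPM. It had the lowest Hk2 (3.41 CPM) and Bnip3 (2.34 CPM) of all 20 ES-astrocyte libraries. Its members summed to 3156 CPM, the highest of all 40 libraries. Its astrocyte markers summed to 606 CPM beside 2740, 2245 and 2725 CPM in B, C and D. Its dividing cell markers summed to 1060 CPM beside 1237, 1489 and 1440 CPM in B, C and D, its fibroblast markers to 93.1 CPM beside 1119, 203 and 279 CPM, and its motor neuron markers to 109 CPM beside 44.5, 24.0 and 90.6 CPM. Why this library differs was not tested.

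Isoform shares were compared next, since the switch from a glial to a neuronal isoform is a ratio within a library. A share is the percentage of 1 isoform among the isoforms of its set, per kilobase of the principal transcript, in libraries with at least 20 counts over the set. The share of Ldhb in Ldha and Ldhb was 66.2, 78.6, 95.6 and 83.8% in control ES-astrocytes and 97.0, 97.5, 100 and 96.6% in control ES-motor neurons, or 81.1% ± 12.2 (SD, n = 4) and 97.8% ± 1.5 (SD, n = 4). All 4 ES-motor neuron libraries lay above all 4 ES-astrocyte libraries (exact two-sided permutation p = 0.02857, the smallest possible, and 0.114 after Benjamini-Hochberg adjustment over the 4 of 7 shares that could be tested in control). The 100% of ES-motor neuron replicate C rested on 50 counts (95% Wilson interval of the count share 92.9 to 100%). With any library left out the smallest p that the design allows is 0.0571.

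Across stimuli the same share was higher in ES-motor neurons with TGF-β2, 96.7% ± 3.4 (SD, n = 4) against 79.3% ± 9.2 (SD, n = 4; exact two-sided permutation p = 0.0571), and with C1Q and C5, 97.9% ± 3.4 (SD, n = 3) against 87.5% ± 9.5 (SD, n = 4; exact two-sided permutation p = 0.114). These differences did not pass. With IL-1α and TNF-α the means were 92.3% (n = 3) and 92.1% (n = 4), and with IL-1β and IL-6 91.7% (n = 3) and 87.3% (n = 4). Over all treatments the share was 66.2, 85.9 and 100% in 20 ES-astrocyte libraries and 88.0, 96.6 and 100% in the 17 ES-motor neuron libraries with enough counts. Ldhb RNA was thus more abundant per kilobase than Ldha RNA in every library of both cell types that could be measured, and the protein subunits were not measured.

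**Figure D3:**
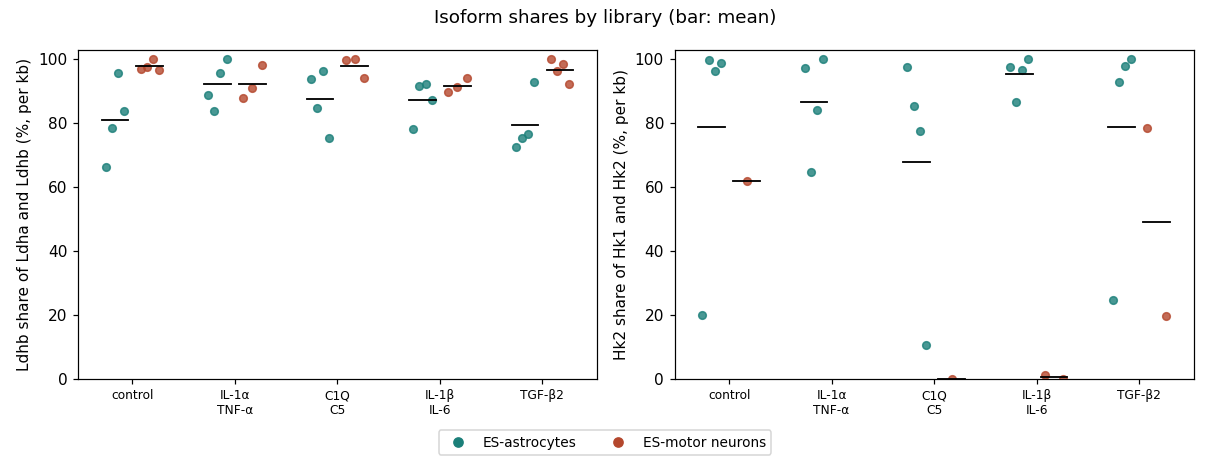
Share of Ldhb in Ldha and Ldhb, and of Hk2 in Hk1 and Hk2, per kilobase and in percent, for each library with at least 20 counts over the isoforms, by treatment, with the mean as a bar. In control the Ldhb share averaged 81.1% in ES-astrocytes against 97.8% in ES-motor neurons, and the Hk2 share of ES-motor neurons could be measured in 6 libraries of 20.

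Hk2 made up 10.6, 96.4 and 100% of Hk1 and Hk2 in 20 ES-astrocyte libraries, and 0, 10.3 and 78.5% in the 6 ES-motor neuron libraries that could be measured. In control a single ES-motor neuron library qualified, at 62.0% (count share 70.0%, 95% Wilson interval 65.6 to 74.1%) beside 78.7% ± 39.1 (SD, n = 4) in ES-astrocytes, so no test was made. With IL-1β and IL-6 the means were 0.521% (n = 2) and 95.2% ± 5.9 (SD, n = 4), where the exact two-sided permutation p of 0.133 was the smallest possible. The 3 ES-astrocyte libraries below 64% were C1Q and C5 replicate D at 10.6%, control replicate A at 20.1% and TGF-β2 replicate A at 24.5%.

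Slc2a3 made up 0, 0 and 81.9% of Slc2a1 and Slc2a3 in 15 ES-astrocyte libraries and 22.3, 87.9 and 100% in 4 ES-motor neuron libraries. In control the 1 measurable ES-motor neuron library was at 90.8% (count share 92.3%, 95% Wilson interval 85.6 to 96.1%) and 3 ES-astrocyte libraries at 1.06% ± 1.84 (SD, n = 3). The share of Slc16a1 among the 3 monocarboxylate transporters was 42.9, 99.7 and 100% in 16 ES-astrocyte libraries and 28.8, 41.6 and 83.0% in 4 ES-motor neuron libraries. Its 1 control ES-motor neuron library was at 28.8% (count share 14.0%, 95% Wilson interval 6.95 to 26.2%) beside 87.1% ± 15.0 (SD, n = 4). Control ES-motor neuron replicates A and D, with too few counts for a share, held 10 and 12 counts of Slc16a1 and 0 of the others, and with counts summed over the group the difference shrank from -58.3 to -23.7 percentage points. Both transporter sets are known only from the deeper ES-motor neuron libraries, and no test of them was possible in control at this depth.

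The classic pairs of neuronal and astrocyte enzymes were close to 1 isoform in both cell types. Aldoc made up 0% of Aldoa and Aldoc in the 4 control ES-astrocyte libraries and 0.236% ± 0.41 (SD, n = 3) in control ES-motor neurons, and never exceeded 3.65% in any library. Eno2 made up 0% of Eno1 and Eno2 in control ES-astrocytes and 1.70% ± 2.94 (SD, n = 3) in ES-motor neurons (exact two-sided permutation p = 0.857 for each pair). With TGF-β2 Eno2 was at 7.13% ± 4.35 (SD, n = 3) in ES-motor neurons and 0% in ES-astrocytes (n = 4; exact two-sided permutation p = 0.0571, the smallest possible). The highest Eno2 share, 57.4%, came from 13 of 20 counts in ES-motor neuron IL-1β and IL-6 replicate C (95% Wilson interval of the count share 43.3 to 81.9%). The Pfkp share in control was 45.5% ± 11.2 (SD, n = 2) in ES-motor neurons and 15.2% ± 8.3 (SD, n = 3) in ES-astrocytes (exact two-sided permutation p = 0.2, the smallest possible).

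Each stimulus was then compared with the control within a cell type, to ask whether reactive ES-astrocytes or the ES-motor neurons on them shift these genes. The 4 stimuli share the 4 control libraries of a cell type, so their values are not independent of each other. In edgeR (quasi-likelihood, Benjamini-Hochberg adjusted) 0 members were called in any of the 8 comparisons, and the share of all genes called was 0% in 7 of them and 0.0126% in ES-motor neurons with TGF-β2. DESeq2 called 0 members in each of the 8, and at most 0.462% of all genes. At an unadjusted p under 0.05 there were 0 members in the 4 ES-astrocyte comparisons, 1 in ES-motor neurons with IL-1α and TNF-α (beside 143 of 4479 genes), 1 with C1Q and C5 (beside 322 of 7348), and 0 with IL-1β and IL-6 and with TGF-β2. The test of stimulus by cell type called 0 of 30 members (0% of all genes, 0 members at an unadjusted p under 0.05, 0 called by DESeq2, lowest edgeR adjusted p = 0.889).

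In ES-astrocytes 24, 27, 23 and 25 members could be tested with IL-1α and TNF-α, C1Q and C5, IL-1β and IL-6, and TGF-β2, and their median log2 fold changes were -0.41, -0.13, -0.40 and -0.17. The members ran from -1.60 to 0.93, from -2.03 to 2.08, from -3.40 to 1.53 and from -3.28 to 2.04. In ES-motor neurons 10, 16, 19 and 20 could be tested, with medians of 0.29, -0.20, 0.15 and -0.19.

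Of 13 cytokine response genes 5 could be tested in ES-astrocytes with IL-1α and TNF-α, and 0 were called. Saa3 and Ccl5, picked from them after their values were seen, were at 0 CPM in all 4 control libraries and at means of 94.1 and 46.6 CPM with the stimulus. Genes at 0 in the control pass the filter on low counts only through the stimulated group, so no test of this pair is given. Of the 6 TGF-β response genes, led by Skil, 3 could be tested in ES-astrocytes with TGF-β2 and 0 were called (0 at an unadjusted p under 0.05).

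Ldha and Eno1 of ES-astrocytes overlapped with the control under each stimulus. Ldha, at 244, 44.9, 12.02 and 28.7 CPM in control, was at 13.6, 87.3, 16.5 and 0 CPM with IL-1α and TNF-α, at 14.8, 62.4, 10.9 and 38.3 CPM with C1Q and C5, at 29.5, 40.5, 17.8 and 27.4 CPM with IL-1β and IL-6, and at 111, 119, 22.3 and 16.8 CPM with TGF-β2. The 0 and the 10.9 CPM lay below the lowest control library. The log2 fold changes of -1.46, -1.33, -1.51 and -0.22 each turned positive without control replicate A (0.11, 0.21, 0.04 and 1.27). Eno1 had log2 fold changes of -0.89, -0.66, -0.83 and 0.25, of which the 3 negative ones turned to 0.38, 0.59 and 0.42 without that library.

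Hk2 in ES-astrocytes was at 33.97, 13.8, 69.7 and 86.1 CPM with IL-1α and TNF-α, at 35.6, 12.7, 33.3 and 6.61 CPM with C1Q and C5, at 53.5, 37.2, 45.0 and 49.9 CPM with IL-1β and IL-6 and at 6.94, 31.1, 150 and 32.9 CPM with TGF-β2, beside 3.41, 86.3, 51.7 and 71.6 CPM in control. The control range held all stimulated libraries but TGF-β2 replicate C. Its log2 fold changes were -0.01, -1.25, -0.18 and 0.10, with SEs of 0.85, 0.91, 0.77 and 0.99. Slc2a1 had negative log2 fold changes with all 4 stimuli, -1.06, -2.03, -2.28 and -1.66, with SEs of 1.46, 1.73, 1.67 and 1.46 (edgeR adjusted p = 1.00 for each). The control values behind them were 53.2, 0, 53.5 and 8.55 CPM, so 2 of the 4 control libraries were above every stimulated one.

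Hypoxia genes of ES-astrocytes overlapped with the control too. Hif1a had log2 fold changes of 0.28, 0.15, -0.02 and 0.34, with SEs between 0.46 and 0.52. Vegfa had group medians of 2.35 CPM in control and of 2.09, 1.71, 0.156 and 1.95 CPM with the stimuli in the order above. Egln3 had group medians of 15.9 CPM in control and of 5.32, 2.30, 0.113 and 1.12 CPM, and each stimulated group overlapped with the control, whose replicates ran from 0.0902 to 23.3 CPM. The 35.2 CPM of IL-1α and TNF-α replicate A lay above that range.

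In ES-motor neurons the 2 members with an unadjusted p under 0.05 were Gpi1 and Bnip3. Gpi1, phosphoglucose isomerase, was at 20.8, 56.1, 15.4 and 37.2 CPM in control and at 130, 38.8, 87.0 and 26.0 CPM with IL-1α and TNF-α. The groups overlapped and all 4 stimulated libraries were shallow (log2 fold change 1.28, SE 0.60, edgeR adjusted p = 0.990, 3 of 4 above the control median). Bnip3 was at 57.8, 70.7, 57.6 and 60.5 CPM in control and at 67.4, 11.9, 5.12 and 38.7 CPM with C1Q and C5. The 1 high stimulated library, replicate A, was that of 6557 counts and held 1 count of the gene (log2 fold change -1.59, SE 0.61, edgeR adjusted p = 0.997, 3 of 4 below the control).

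With IL-1β and IL-6 Ldha had the largest positive log2 fold change of the members in ES-motor neurons. It was at 52.4, 33.8, 22.7 and 0 CPM beside 6.33, 10.4, 0 and 9.06 CPM in control, and the 33.8 CPM of replicate B were 3 counts. Of the 4 stimulated libraries 3 lay above all controls (log2 fold change 1.99, SE 0.96, edgeR adjusted p = 1.00). Hif1a had log2 fold changes of -0.22, -0.56, 0.02 and -0.17 with the 4 stimuli in ES-motor neurons, each smaller than the 0.79 between the cell types in control, which did not pass either (edgeR adjusted p = 0.690, SE 0.51, 3 of 4 ES-motor neuron libraries above the ES-astrocyte median).

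The other genes of these pathways, 76 from a list by role, were read beside the members. Between the cell types over all treatments 52 could be tested and 5 were called, 1 higher and 4 lower in ES-motor neurons, 9.62% of those tested against 14.9% of all genes (11% lower). The median log2 fold change was -0.14 beside -0.21 over all genes tested. The lower ones were Lox, Loxl2, Cited2 and Pdp2. Lox and Loxl2 passed the filter through ES-astrocytes alone and the higher one, Pfkfb2, through ES-motor neurons alone, so their calls support nothing and no p is given for them. Lox, a collagen crosslinking enzyme, had 2330 counts in 16 of 20 ES-astrocyte libraries, at 0, 6.33 and 59.5 CPM, and 0 counts in all ES-motor neuron libraries, at least 429.6-fold higher in ES-astrocytes, or 299.6-fold without control ES-motor neuron replicate B. Its relative Loxl2 was at 0, 0.843 and 15.8 CPM and at 0, 0 and 2.82 CPM (log2 fold change -3.16), and 3 ES-motor neuron libraries had counts of it. Both are also expressed by fibroblasts, whose markers were higher in ES-astrocytes as given above, and the part of such cells was not tested. Cited2, a HIF target that competes with HIF for a coactivator, was at 16.8, 37.0 and 90.0 CPM and at 0, 14.9 and 51.2 CPM (log2 fold change -1.14, edgeR adjusted p = 0.0153).

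Of 10 genes of pyruvate entry tested, Pdp2, the phosphatase that activates pyruvate dehydrogenase, was lower at 7.53, 67.1 and 149 CPM in ES-astrocytes against 0, 32.5 and 79 CPM in ES-motor neurons (log2 fold change -1.07, edgeR adjusted p = 0.0238). The 1 gene called higher in ES-motor neurons was Pfkfb2, a relative of Pfkfb3, at 0, 0.177 and 25.4 CPM and at 0, 5.72 and 49.8 CPM (log2 fold change 3.25). Mpc1, a subunit of the carrier that takes pyruvate into mitochondria, passed the adjusted p but not the fold minimum. It was at 16.0, 65.7 and 120 CPM in ES-astrocytes and at 67.4, 121 and 250 CPM in ES-motor neurons (log2 fold change 0.88, SE 0.18, edgeR adjusted p = 0.000167). Its lowest ES-motor neuron value, in C1Q and C5 replicate A, was 1 count. No gene of transport (4 tested), glycogen (6 tested) or the HIF pathway itself (6 tested) was called. Epas1, which encodes the HIF subunit known from endothelium and glia, had 5 counts in 3 ES-astrocyte libraries and 0 in ES-motor neurons. In control 40 of the 76 could be tested and 0 were called by edgeR, where 2.24% of all genes were (2 at an unadjusted p under 0.05).

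HIF binds a core motif of ACGTG or GCGTG in front of its targets, and 3 promoters that hold the ACGTG form, of Egln3, Hk2 and Ldha, are printed to show where it lies. They were picked from the 6 called members for holding it. Promoter windows of 300 bases, from 250 before to 50 after the gene start, came from RefSeq (GRCm38.p6) and were matched by symbol for 31 of the 34 members. ACGTG or its reverse complement CACGT was in 25 of 45 member promoters and in 19.6% of 32851 promoters of the same length. GCGTG or CACGC was in 26 member promoters and 32.4% of all, and either form in 36 and 43.8%. The members include genes that were listed because they are HIF targets, so the share is a description of the list. Of the 6 called members, Eno1 had no ACGTG in its 3 windows and 2 GCGTG in each. The sequences run 5′ to 3′ on the strand of the gene, with ACGTG and CACGT alone in capitals, which overlap where CACGTG is read.
Egln3: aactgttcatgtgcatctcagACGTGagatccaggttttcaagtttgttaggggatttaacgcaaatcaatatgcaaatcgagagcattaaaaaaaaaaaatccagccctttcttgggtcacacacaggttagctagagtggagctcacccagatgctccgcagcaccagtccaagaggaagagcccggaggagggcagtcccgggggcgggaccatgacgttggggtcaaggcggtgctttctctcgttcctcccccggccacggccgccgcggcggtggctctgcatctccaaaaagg
Hk2: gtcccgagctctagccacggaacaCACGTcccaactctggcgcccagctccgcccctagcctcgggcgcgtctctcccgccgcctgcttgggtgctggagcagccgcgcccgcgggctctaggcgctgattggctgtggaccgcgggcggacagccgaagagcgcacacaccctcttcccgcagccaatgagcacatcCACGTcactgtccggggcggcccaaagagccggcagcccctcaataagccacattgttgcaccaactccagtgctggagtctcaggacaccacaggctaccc
Ldha: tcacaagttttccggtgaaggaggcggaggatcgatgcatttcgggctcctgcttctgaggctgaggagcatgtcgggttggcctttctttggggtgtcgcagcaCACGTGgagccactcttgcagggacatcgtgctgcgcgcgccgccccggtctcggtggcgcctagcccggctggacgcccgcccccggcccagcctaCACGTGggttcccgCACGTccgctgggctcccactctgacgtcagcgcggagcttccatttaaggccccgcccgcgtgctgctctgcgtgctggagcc
The window of Egln3 (chr12:54203825-54204124, minus strand) holds 1 match, that of Hk2 (chr6:82774405-82774704, minus strand) 2, and that of Ldha (chr7:46845554-46845853, plus strand) 5 over both strands. The Ldha windows lie at RefSeq starts inside the annotated gene, and its other window (chr7:46846832-46847131) holds 0. Slc2a1 (chr4:119108495-119108794, plus strand) holds 1 match and Slc16a1 (chr3:104638414-104638713, plus strand) 3. No measurement here bears on binding at these sites.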

How the data were processed

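The counts per gene were those deposited by the authors, made with STAR. The versions of STAR and of the counting tool and the genome build were not given in the sources used here, and no reads were aligned again. Gene names came from the GENCODE vM21 annotation (GRCm38), which named all but 260 of 55487 genes, and the unnamed genes held 0.117% of the counts. All 40 libraries were used. Members are the 34 listed symbols, and the members and the gene lists (76 further pathway genes, cell type markers, and 13 cytokine and 6 TGF-β response genes) were chosen with earlier results of these data known. The rule for named genes, set before the counts were read, accounts for all members by role, with values for the isoform sets, Vegfa, Hif1a and every called member, and names up to 5 called pathway genes a comparison. Bnip3, Gpi1, Gapdh and other members given with values beyond that, Saa3, Ccl5, Mpc1, Epas1 and single markers were chosen after their values were seen.

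Tests used edgeR 4.0.16 in R 4.3.3: filterByExpr by group, TMM, robust dispersion and quasi-likelihood F tests, with cell type and treatment as terms or, for a stimulus, treatment alone. Calls required more than a 2-fold difference with p no higher than 0.05 after Benjamini-Hochberg adjustment, and the interaction the adjusted p alone. The SE is the absolute log2 fold change over the square root of F. Libraries of sorted cells were not paired, as the letters were not shown to mark a shared culture. Alternatives were RLE scaling, no filter, DESeq2 1.42.0 (alpha 0.1), limma-voom 3.58.1 with quality weights, replicate blocks, a term for well rows, no fold minimum, 1 fit of all libraries and leaving out libraries. Isoform shares needed 20 counts (alternatively 100) and were compared by exact permutation in Python 3.11.15 with numpy 2.4.6, pandas 2.3.3 and SciPy 1.17.1. Near-identical copies were found with BLAST 2.17.0 at 95% identity over at least 200 bases. The fold floor was 3 counts, shallow meant under 20% of the median total, and a far library had a gap above 0.829 of the range of 4.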

Additional observations from a re-analysis of the deposited data

Results flagged for a closer look

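Over all 34 members, in 87 of 316 groups of 4 libraries with the member detected, 1 library lay far from the other 3, by a gap above Dixon's critical value for 4 samples. For normally distributed values chance marks about 1 in 20 groups, but counts near 0 are not so distributed, and a group with 3 libraries at 0 is marked whatever the count of the other, so the 87 are not compared with that rate. Of the 87, 85 were high and 2 low, the others of the group were at 0 in 41, and the far library held at most 3 counts of the gene in 18 and over 20 in 47. They fell in 30 libraries, most often in ES-motor neuron IL-1β and IL-6 replicate A (10), and 8 each in ES-motor neuron C1Q and C5 replicate D, control ES-astrocyte replicate A and ES-astrocyte IL-1β and IL-6 replicate B. Each is given as the far value in CPM with the range of the other 3.

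Hk1: ES-astrocytes 9.48 in control replicate A (others 0.0902 to 1.46), 39.03 in C1Q and C5 replicate D (others 0.673 to 6.79), 14.9 in TGF-β2 replicate A (others 0 to 2.16). Hk2: ES-motor neurons 1.02 in C1Q and C5 replicate C (others 0), 33.4 in IL-1β and IL-6 replicate D (others 0 to 0.317). Pfkl: ES-astrocytes 7.58 in IL-1α and TNF-α replicate B (others 0), 2.42 in IL-1β and IL-6 replicate B (others 0); ES-motor neurons 30.2 in C1Q and C5 replicate B (others 0 to 0.352). Pfkm: ES-motor neurons 15.6 in control replicate B (others 3.84 to 4.77), 10.2 in C1Q and C5 replicate C (others 0 to 1.06); ES-astrocytes 1.13 in IL-1β and IL-6 replicate A (others 15.1 to 17.3). Aldoa: ES-astrocytes 538 in control replicate A (others 59.5 to 116), 253 in C1Q and C5 replicate B (others 93.7 to 117); ES-motor neurons 395 in IL-1α and TNF-α replicate A (others 60.6 to 114), 186 in C1Q and C5 replicate D (others 62.1 to 81.9). Aldoc: ES-motor neurons 2.65 in control replicate B (others 0); ES-astrocytes 5.27 in IL-1α and TNF-α replicate B (others 0), 17.6 in C1Q and C5 replicate B (others 0 to 0.154), 1.81 in IL-1β and IL-6 replicate A (others 0). Gapdh: ES-astrocytes 351 in control replicate A (others 28.7 to 32.4), 124 in IL-1α and TNF-α replicate B (others 39.5 to 41.5), 57.2 in IL-1β and IL-6 replicate B (others 22.6 to 23.01); ES-motor neurons 195 in IL-1α and TNF-α replicate A (others 8.65 to 32.3), 136 in IL-1β and IL-6 replicate A (others 20.04 to 26.3). Pgk1: ES-astrocytes 56.2 in IL-1β and IL-6 replicate A (others 72.5 to 74.1). Pgam1: ES-astrocytes 24.4 in IL-1β and IL-6 replicate B (others 6.86 to 9.10), 31.01 in TGF-β2 replicate A (others 8.29 to 12.1).

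Eno1: ES-astrocytes 247 in control replicate A (others 29.7 to 53.9), 122 in IL-1β and IL-6 replicate B (others 19.04 to 31.4); ES-motor neurons 99.3 in IL-1β and IL-6 replicate A (others 0 to 1.39). Eno2: ES-astrocytes 1.98 in IL-1α and TNF-α replicate B (others 0), 0.0778 in IL-1β and IL-6 replicate C (others 0); ES-motor neurons 11.8 in IL-1α and TNF-α replicate A (others 0). Pkm: ES-astrocytes 532 in control replicate A (others 42.7 to 67.9); ES-motor neurons 186 in IL-1β and IL-6 replicate A (others 33.4 to 56.4). Ldha: ES-astrocytes 244 in control replicate A (others 12.02 to 44.9); ES-motor neurons 9.86 in C1Q and C5 replicate D (others 0 to 0.796). Slc2a1: ES-motor neurons 5.42 in control replicate A (others 0 to 0.408), 5.90 in IL-1α and TNF-α replicate A (others 0), 6.34 in C1Q and C5 replicate D (others 0 to 0.796), 7.28 in IL-1β and IL-6 replicate A (others 0), 12.4 in TGF-β2 replicate A (others 0 to 1.11). Slc2a3: ES-astrocytes 14.7 in IL-1α and TNF-α replicate C (others 0 to 0.0765), 21.8 in IL-1β and IL-6 replicate C (others 0 to 0.604); ES-motor neurons 0.352 in C1Q and C5 replicate D (others 0). Slc16a1: ES-motor neurons 5.90 in IL-1α and TNF-α replicate A (others 0), 21.5 in C1Q and C5 replicate D (others 0 to 0.796), 3.61 in IL-1β and IL-6 replicate A (others 0 to 0.199); ES-astrocytes 110 in TGF-β2 replicate C (others 7.14 to 17.5). Slc16a3: ES-astrocytes 0.320 in control replicate A (others 0), 4.46 in C1Q and C5 replicate D (others 0), 0.0778 in IL-1β and IL-6 replicate C (others 0); ES-motor neurons 3.10 in IL-1β and IL-6 replicate A (others 0). Slc16a7: ES-motor neurons 2.19 in control replicate B (others 0), 10.9 in C1Q and C5 replicate D (others 0), 11.3 in IL-1β and IL-6 replicate B (others 0); ES-astrocytes 2.53 in IL-1α and TNF-α replicate A (others 0), 6.79 in C1Q and C5 replicate C (others 0), 3.62 in IL-1β and IL-6 replicate B (others 0 to 0.227), 11.1 in TGF-β2 replicate B (others 0). Pdk1: ES-astrocytes 23.5 in IL-1α and TNF-α replicate D (others 0 to 0.459), 3.27 in TGF-β2 replicate D (others 0 to 0.360); ES-motor neurons 13.4 in IL-1α and TNF-α replicate C (others 0), 5.57 in IL-1β and IL-6 replicate A (others 0), 3.42 in TGF-β2 replicate D (others 0). Pfkfb3: ES-astrocytes 2.21 in IL-1β and IL-6 replicate B (others 0). Vegfa: ES-motor neurons 6.69 in IL-1α and TNF-α replicate C (others 0), 7.75 in C1Q and C5 replicate D (others 0 to 1.02), 10.2 in IL-1β and IL-6 replicate C (others 0 to 1.46); ES-astrocytes 2.21 in IL-1β and IL-6 replicate B (others 0 to 0.311). P4ha1: ES-motor neurons 25.9 in IL-1α and TNF-α replicate B (others 0), 16.4 in C1Q and C5 replicate C (others 0), 8.27 in TGF-β2 replicate A (others 0 to 0.856). Egln3: ES-astrocytes 12.5 in IL-1β and IL-6 replicate B (others 0 to 0.227). Ankrd37: ES-astrocytes 16.02 in IL-1α and TNF-α replicate D (others 0 to 0.988); ES-motor neurons 3.17 in IL-1β and IL-6 replicate A (others 0). Ndrg1: ES-astrocytes 2.02 in control replicate A (others 0), 10.8 in C1Q and C5 replicate A (others 0 to 0.768), 3.42 in IL-1β and IL-6 replicate C (others 0); ES-motor neurons 2.71 in control replicate A (others 0), 5.90 in IL-1α and TNF-α replicate A (others 0), 0.380 in IL-1β and IL-6 replicate A (others 0), 20.7 in TGF-β2 replicate A (others 0). Ddit4: ES-motor neurons 0.704 in C1Q and C5 replicate D (others 0), 0.0633 in IL-1β and IL-6 replicate A (others 0), 0.856 in TGF-β2 replicate D (others 0); ES-astrocytes 0.612 in TGF-β2 replicate A (others 0).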

How the results depend on the processing

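Values below are log2 fold changes unless named otherwise, and each alternative changed 1 choice, except that limma-voom was run with quality weights for the libraries and DESeq2 with its own scaling and filter. The edgeR count of 6 members called between cell types over all treatments was 6 with RLE scaling, with a block by co-culture, with the pair of well rows as a term and with no fold minimum, and 7 with no filter, by DESeq2 and with the replicate block by letter. DESeq2 called 12.9% of all genes, and the shares for the other refits that gave 6 or 7 are not given here. The count was 3 without the shallow libraries (10.4% of all genes) and 10 by limma-voom with quality weights (23.5%), 4 of them shared (Slc2a1 and Egln3 were lost), 6 higher and 4 lower in ES-motor neurons. With single letters or the control ES-astrocyte library A left out it ran from 2 to 7. These further alternatives were chosen after seeing the data: the first plate alone (2), the second plate alone (1), single treatments (control 0, IL-1α and TNF-α 1, C1Q and C5 0, IL-1β and IL-6 0, TGF-β2 0), the left-out control library, the union of exons as length, and the fold bounds with each library left out, which for Egln3 were lowest at 116 over all treatments and 13.5 in control, and for Lox at 299.6 over all treatments. Single treatments and plates have fewer libraries, and the cause of the other shifts was not tested. In control the count of 0 (4 at an unadjusted p under 0.05) was 2 by DESeq2 and ran from 0 to 1 with single libraries left out. The replicate block by letter left it at 0. For the 8 stimulus comparisons and the interaction, 136 alternatives gave 0 members called.

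Letters were used as a replicate block only here, because libraries that share a letter were not more alike: correlations of their deviations ran from -0.144 to 0.0981 in 20 pairs of cell types, 0 of them above 0.1, and from -0.224 to 0.392 in 32 pairs of stimulus and control, 2 of them above 0.1. The median of all genes moved by more than 0.1 by limma-voom with quality weights (0.588), without the shallow libraries (0.158, and 0.160 in control), in control with no filter (0.117) and with the replicate block (0.208), with the replicate block in ES-astrocytes with IL-1α and TNF-α (0.128), C1Q and C5 (0.109) and TGF-β2 (0.165), and in ES-motor neurons with IL-1α and TNF-α with no filter (-0.158) and in 1 fit of all 40 libraries (-0.174). Leaving out the shallow libraries was not run for ES-motor neurons with IL-1α and TNF-α, all 4 of which are shallow, and for the interaction. In that comparison 10 members could be tested.

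Differences in isoform share in control, in percentage points, moved by more than their spread in these cases: Aldoc 0.646 with counts summed over the group (0.236 as reported), Slc2a3 84.7 with the union of exons as length and 84.9 with summed counts (89.7 as reported), and Slc16a1 -23.7 with summed counts (-58.3 as reported). The cause was not tested. For the Ldhb share the paired sign-flip test, a replicate block, gave an exact p = 0.125, the smallest possible with 4 pairs, at the same difference of 16.7, which ran from 11.8 to 21.6 with single libraries left out.

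Single genes gave 81 results under 1263 alternatives, of which 1102 kept direction and side of the threshold, 44 were weaker, 6 stronger and 111 reversed. The reversed values follow, and the cause was not tested. Between cell types over all treatments they were Slc2a3 -0.14 and Bnip3 -0.15 in the second plate alone; Hk1 -0.20, Ldhb -0.0300 and Bnip3 -0.79 with C1Q and C5 alone; Pfkm 9.76e-05 by DESeq2; Pfkm 0.16 with the replicate block by letter; Pfkm 0.23 and Bnip3 -0.0792 with a block by co-culture; Pfkm 0.99, Ldhb -0.0332 and Bnip3 -0.0528 by limma-voom; Pfkm 0.0549 with the pair of well rows as a term; Pfkm 0.36 and Vegfa -0.35 in the first plate alone; Pfkm 1.22, Aldoa 0.0933, Gapdh 0.0946, Ldhb -0.0313 and Bnip3 -0.26 with IL-1α and TNF-α alone; Pfkm 1.26 and Bnip3 -0.37 with TGF-β2 alone; Pfkp -0.53, Gapdh 0.83 and Ldha 0.00302 with IL-1β and IL-6 alone; Slc16a7 -0.79 without the shallow libraries. Between cell types in control they were Pfkl -0.0277 with the pair of well rows as a term. In ES-astrocytes with IL-1α and TNF-α they were Hk2 0.00988 with RLE scaling; Hk2 0.00938 by DESeq2; Hk2 0.39, Vegfa 1.37 and Gpi1 0.0374 with the replicate block by letter; Hk2 0.18 with the pair of well rows as a term. In ES-astrocytes with C1Q and C5 they were Vegfa 1.49 with the replicate block by letter. In ES-astrocytes with IL-1β and IL-6 they were Hk2 0.24, Hif1a 0.0696, Gpi1 0.29 and Bnip3 0.22 with the replicate block by letter; Hk2 0.00785, Hif1a 0.0181 and Gpi1 0.19 with the pair of well rows as a term. In ES-motor neurons with IL-1β and IL-6 they were Hk2 0.13 by DESeq2; Eno1 0.43 without the shallow libraries; Hif1a -0.12 with the replicate block by letter. In ES-astrocytes with TGF-β2 they were Ldha 0.14, Vegfa 1.77 and Gpi1 0.29 with the replicate block by letter; Ldha 0.0354 and Gpi1 0.23 with the pair of well rows as a term. In ES-motor neurons with TGF-β2 they were Hif1a 0.10 without the shallow libraries.

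With single libraries, or all libraries of a letter, left out in turn, genes whose sign turned had these lowest and highest values. Between cell types over all treatments: Slc2a3 -0.10 to 2.94, Pfkm -0.50 to 0.47, Slc16a7 -0.99 to 1.27, Bnip3 -0.00393 to 0.26. Between cell types in control: Pfkl -0.14 to 0.73, Pfkm -1.32 to 0.13, Aldoa -1.30 to 0.41, Ldhb -0.10 to 0.61. In ES-astrocytes with IL-1α and TNF-α: Hk2 -0.41 to 0.31, Ldha -3.01 to 0.11, Eno1 -1.35 to 0.38, Vegfa -1.29 to 0.58, Gpi1 -0.85 to 0.56. In ES-motor neurons with IL-1α and TNF-α: Hif1a -0.51 to 0.0278. In ES-astrocytes with C1Q and C5: Ldha -1.91 to 0.21, Eno1 -1.02 to 0.59, Vegfa -1.47 to 0.25, Hif1a -0.0940 to 0.44, Gpi1 -0.0205 to 1.39. In ES-astrocytes with IL-1β and IL-6: Hk2 -0.57 to 0.15, Ldha -1.79 to 0.0427, Eno1 -1.73 to 0.42, Hif1a -0.26 to 0.26, Gpi1 -0.48 to 0.97, Bnip3 -0.51 to 0.14. In ES-motor neurons with IL-1β and IL-6: Hk2 -5.34 to 0.00501, Eno1 -4.96 to 0.27, Hif1a -0.38 to 0.37, Gpi1 -0.50 to 0.78. In ES-astrocytes with TGF-β2: Hk2 -1.13 to 0.46, Ldha -0.69 to 1.27, Eno1 -0.10 to 1.46, Vegfa -1.25 to 1.09, Gpi1 -0.49 to 0.87. In ES-motor neurons with TGF-β2: Ldha -0.27 to 0.94, Hif1a -0.54 to 0.11.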
